A study of Mus musculus with 8 samples.

Results

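The Rab GTPases are the largest family of small GTP-binding proteins that direct membrane traffic. Members were taken as every gene whose platform symbol is Rab followed by a number, and genes named for Rab partners, such as Rab effectors and Rab GTPase-activating proteins, were kept apart. The array carried 112 probes for 59 such genes. Of these, 74 probes for 47 genes were measured, meaning a detection p under 0.05 on at least 4 of 8 arrays, out of 18601 measured probes and 10734 measured named genes in all. The other 12 genes had no measured probe. They were Rab20, Rab26, Rab27b, Rab2b, Rab30, Rab33a, Rab37, Rab3b, Rab3c, Rab40b, Rab44 and Rab9b. Probes of Rab26 and Rab44 were detected on at most 3 arrays and those of Rab3b on 1 array.

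The samples were whole kidneys of adult male C57/bk mice, taken 7 days after unilateral ureteral obstruction, in which the ureter of 1 kidney is closed off and that kidney becomes inflamed and scarred. One group received anti-miR-214, an antisense oligonucleotide directed at the microRNA miR-214, and the other a control antimiR. Each group held 4 animals with 1 Illumina bead array per animal, and every animal was obstructed, so all values compare obstructed kidneys with each other. The labels state no age beyond adult, no dose and no dosing time.

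A Rab protein cycles between a GDP-bound form held in the cytosol and a GTP-bound form on a membrane. Guanine nucleotide exchange factors switch it on at a given organelle, GTPase-activating proteins switch it off, and effectors that bind the active form recruit motors, tethers and fusion proteins. In kidney tubule cells, Rab proteins are known for the uptake and recycling of filtered protein and for the delivery of transporters and channels to the apical surface. Each Rab marks its own step, from the endoplasmic reticulum (ER) through the Golgi to endosomes, lysosomes, recycling vesicles, secretory granules and the primary cilium.

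A microRNA lowers its target messages mainly by pairing of its seed, bases 2 to 8, with sites in their 3' untranslated regions. Both mature strands of mouse miR-214 are shown because the oligonucleotide is named for this microRNA, with the seed in capitals. Which strand it was directed at is not stated here. RefSeq places them on the plus strand at chr1:162223438-162223459 (3p strand) and chr1:162223397-162223418 (5p strand), build GRCm38.p6.
mmu-miR-214-3p: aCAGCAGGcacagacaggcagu
mmu-miR-214-5p: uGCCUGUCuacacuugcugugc
The 2 seeds, CAGCAGG and GCCUGUC, differ. The array did not measure mature miR-214. Its host transcript Dnm3os averaged 8.53 ± 0.30 in anti-miR-214 and 8.43 ± 0.40 in control antimiR kidneys on its brightest probe (normalized log2 intensity, SD, n = 4 each, limma adjusted p = 0.753), and changed by -0.40 on its other probe (adjusted p = 0.0720).

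Detection differed between the groups. An array detected 16852 to 17745 probes in anti-miR-214 kidneys and 18913 to 19513 in control antimiR kidneys, and of the 74 Rab probes it detected 60 to 69 in anti-miR-214 and 72 to 74 in control antimiR kidneys (exact permutation test, two-sided p = 0.0286 for each, the smallest that 4 against 4 arrays allow). A further measure, the mean difference of each dimmer probe from the brightest probe of the same gene, called the probe gap here, averaged -1.85 ± 0.038 in anti-miR-214 and -1.73 ± 0.031 in control antimiR arrays (log2 intensity, SD, n = 4 each, exact permutation test, p = 0.0286). Some markers of other cells moved too. Over all named genes by their brightest probes, 9.93% fell and 12.3% rose. Of 6 measured macrophage markers 3 fell, and their summed intensity was 2617 to 5920 in anti-miR-214 and 9269 to 10690 in control antimiR kidneys. Of 7 fibroblast markers 6 fell (summed intensity 11364 to 18540 in anti-miR-214 and 17161 to 26673 in control antimiR kidneys), and of 5 endothelial markers 3 fell (2463 to 6075 in anti-miR-214 and 5954 to 8750 in control antimiR kidneys). Of 5 T and NK cell markers 1, the granule protein gene Prf1, rose and 4 did not pass. The summed intensity of this list, Prf1 included, was 3417 to 4935 in anti-miR-214 and 2085 to 2654 in control antimiR kidneys. Tubule markers were well measured: 8 of 8 for the proximal tubule, 4 of 6 for the distal tubule and 5 of 6 for the collecting duct. By their brightest probes Hnf4a of the proximal tubule and Scnn1a of the collecting duct rose, and no other tubule marker passed. Another probe of the proximal tubule gene Slc13a3 rose by 1.05 (adjusted p = 0.0235), and a further one changed by 0.65 without passing (adjusted p = 0.329). Other probes of the distal tubule genes Slc12a1 and Slc12a3 changed in both directions without passing. Of 4 podocyte markers 1, the slit diaphragm gene Nphs1, rose by 0.50 (adjusted p = 0.00969). In whole-kidney RNA, fewer cells of a type and less RNA per cell cannot be told apart, and the part of these shifts in the Rab values was not tested.

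More Rab probes fell than rose in anti-miR-214 kidneys. Changes below are anti-miR-214 minus control antimiR in normalized log2 intensity, tested with limma across all 18601 probes, and a change passed at a Benjamini-Hochberg adjusted p under 0.05. Of the 74 Rab probes, 17 fell and 7 rose, or 32.4% past the threshold, against 25.6% of all tested probes. The share that fell was 23.0% among Rab probes and 13.8% among all, and the share that rose was 9.46% and 11.8%. Represented by its brightest probe over all 8 arrays, a gene fell in 9 cases and rose in 3 of the 47, or 25.5%, against 22.3% of named genes, of which 9.93% fell and 12.3% rose. The genes that fell were Rab6a, Rab5a, Rab1b, Rab18, Rab7b, Rab12, Rab11a, Rab33b and Rab23, and those that rose were Rab27a, Rab25 and Rab8a. A probe could pass the detection filter on control antimiR arrays alone, so the filter itself can add falls to these counts. With detection required on all 8 arrays, 10 of 58 Rab probes fell and 6 rose. Of all 15102 probes kept by that filter, 1775 fell and 2132 rose. That filter in turn drops probes whose signal was lost in either group.

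The large changes among Rab probes were all falls. A fall of at least 2-fold past the threshold was seen for 7 Rab probes of 5 genes (9.46%, against 2.93% of all probes), and no Rab probe rose by that much. Rises of that size were not counted over all probes, so the lack of large rises has no share beside it. For a probe not well above background on any array of the lower group, the bound on its change was counted here in place of the fitted change. One of the 7, the second probe of Rab7, was detected on 1 of 4 anti-miR-214 arrays. The groups did not overlap on 28 Rab probes (37.8%, against 28.9% of all), 20 lower and 8 higher. The median change was -0.05 over the 47 Rab genes and 0.08 over all named genes. The array names open with 2 different numbers, taken here as 2 slides, though the labels name no slide. Slide 1 held 3 animals of each group and slide 2 held 1 of each. Slide 1 alone gave 18 of the 74 Rab probes past the threshold, and 2549 of all 18601 probes. Slide as a block gave 25 Rab probes and 5352 of all probes. The calls did not hold when the probe gap was added to the limma fit as a covariate. This left no Rab probe past the threshold and 11 with an unadjusted p under 0.05. Of all 18601 probes it left 3 past the threshold and 1690 with an unadjusted p under 0.05. In that fit Rab12 and Rab7b changed by -0.71 and -0.79, Rab6a and Rab5a by -1.11 and -1.03, Rab33b by -0.51, Rab1b by -0.31 and Rab25 by 0.03. The groups do not overlap on the probe gap, so group and probe gap cannot be told apart.

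**Figure D1:**
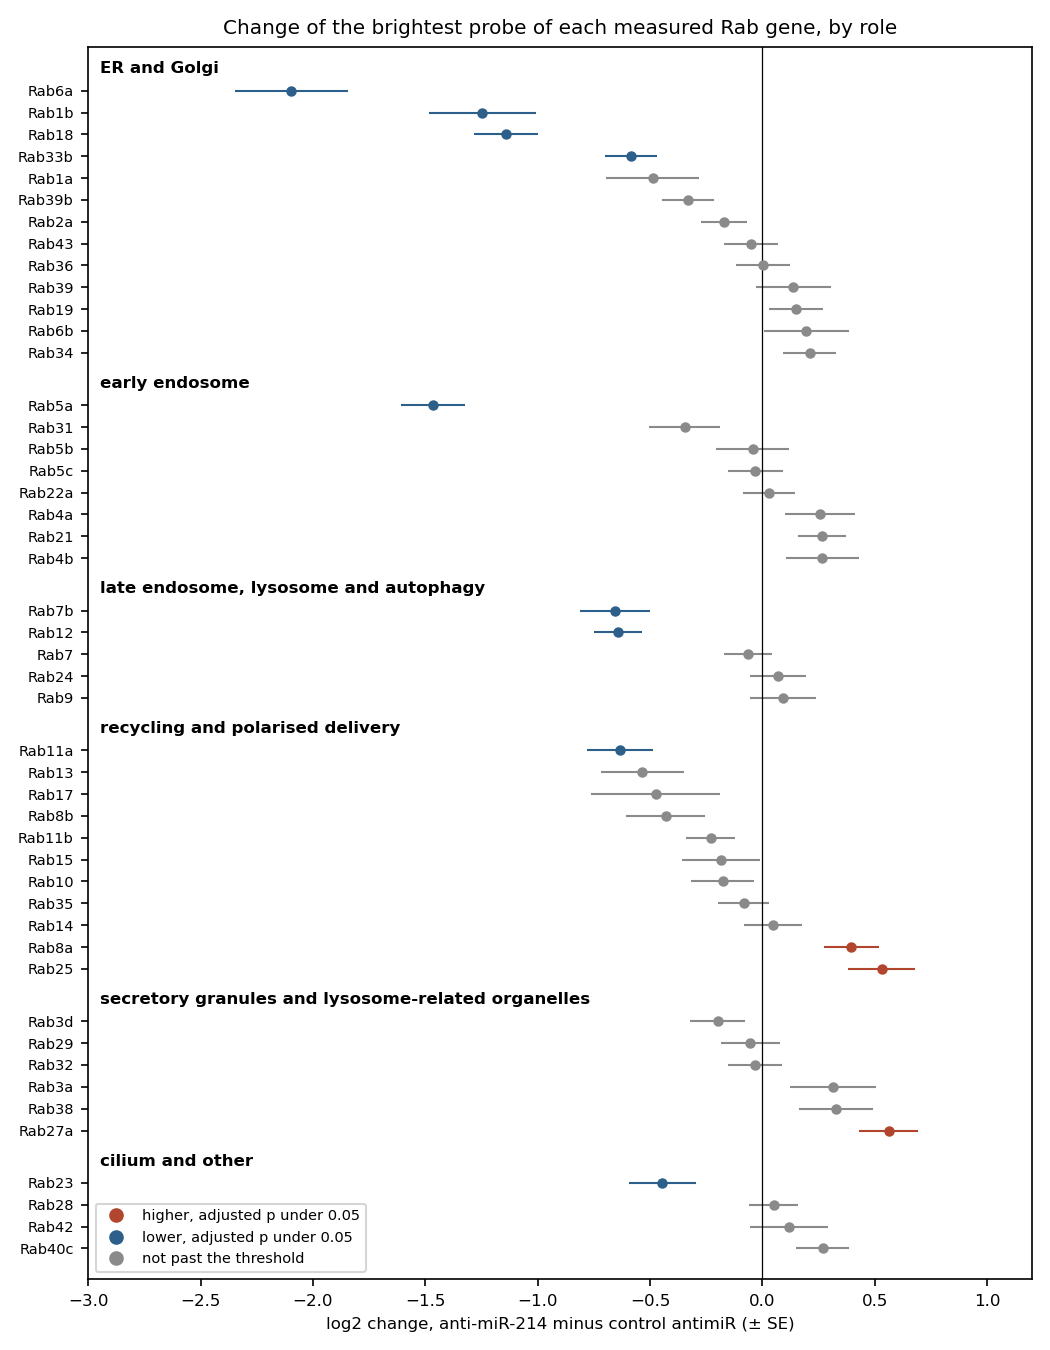
Log2 change of the brightest probe of each of the 47 measured Rab genes (x axis, anti-miR-214 minus control antimiR, bars ± SE), grouped by role down the page. The 9 genes that fell reach -2.10 (Rab6a), while the 3 that rose stay at or below 0.56 (Rab27a).

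Of the 5 genes with a probe that fell at least 2-fold, 3 act at the ER and Golgi: Rab6a, Rab1b and Rab18. Of the 47 measured Rab genes, 13 act at these organelles. By their brightest probes 4 of the 13 fell, 9 did not pass, and the median change was -0.17. Rab6a, Rab5a and Rab7 also had probes that did not fall past the threshold, as described with the probe comparisons. Rab6a, which directs traffic within and out of the Golgi, measured 7.10, 6.96, 6.32 and 5.87 in anti-miR-214 kidneys, against 8.53, 8.48, 8.63 and 9.01 in control antimiR kidneys. Every anti-miR-214 kidney lay more than 1 log2 unit under every control, and the probe was detected on 3 of 4 anti-miR-214 arrays. The change was -2.10 ± 0.25 (SE), 4.28-fold lower, with an adjusted p of 0.000668.

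Rab1b, which takes cargo from the ER to the Golgi, measured 8.18, 7.93, 7.14 and 7.09 in anti-miR-214 kidneys, against 8.64, 8.95, 9.02 and 8.71 in control antimiR kidneys. The treated animals split into a higher and a lower pair, both under the controls, and the change was -1.25 ± 0.24 (adjusted p = 0.00522). Its close relative Rab1a measured 8.80, 8.61, 8.03 and 8.01 in anti-miR-214 kidneys, against 9.18, 8.80, 8.93 and 8.50 in control antimiR kidneys, a change of -0.49 ± 0.21 that did not pass. Rab18, known for ER and lipid droplet contacts, measured 8.15, 7.86, 7.84 and 7.81 in anti-miR-214 kidneys, against 8.73, 9.22, 9.06 and 9.21 in control antimiR kidneys. The groups lay well apart, with a change of -1.14 ± 0.14 (adjusted p = 0.000774).

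Rab33b, a Golgi Rab that binds the autophagy protein Atg16l1, measured 8.64, 8.56, 8.43 and 8.64 in anti-miR-214 kidneys, against 9.22, 9.17, 8.96 and 9.27 in control antimiR kidneys, a change of -0.59 ± 0.12 (adjusted p = 0.00615). Rab2a, which acts between Golgi and ER and is among the 4 brightest Rab genes, measured 12.36, 12.45, 12.38 and 12.38 in anti-miR-214 kidneys, against 12.62, 12.62, 12.48 and 12.55 in control antimiR kidneys. These groups did not overlap either, but the change of -0.17 ± 0.10 did not pass. The other 7 genes of this role did not pass: Rab39b changed by -0.33, Rab43 by -0.05, Rab36 by 0.0021, Rab39 by 0.14, Rab19 by 0.15, Rab6b by 0.20 and Rab34 by 0.21. Rab39b was not well above background on any of the anti-miR-214 arrays, where its level was at least 1.03-fold lower (means 5.60 in anti-miR-214 and 5.93 in control antimiR kidneys, adjusted p = 0.0563).

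In the early endosome group, Rab5a alone of 8 measured genes passed on its brightest probe, and the median change was -0.00075. Rab5a, which drives fusion of incoming endocytic vesicles with the early endosome, measured 8.49, 8.56, 8.21 and 8.05 in anti-miR-214 kidneys, against 9.69, 9.64, 9.96 and 9.88 in control antimiR kidneys. The 2 groups were separated by about 1 log2 unit at their nearest, with a change of -1.47 ± 0.14, 2.76-fold lower (adjusted p = 0.000386). Rab5c, one of its isoforms and a bright gene, measured 11.80, 11.98, 12.11 and 12.17 in anti-miR-214 kidneys, against 11.92, 11.97, 12.09 and 12.20 in control antimiR kidneys, and the groups overlapped throughout (-0.03 ± 0.12). Rab5b, the third isoform, changed by -0.04 ± 0.16. The remaining genes did not pass: Rab31, which acts between the Golgi and endosomes, changed by -0.35, Rab22a by 0.03, the recycling Rabs Rab4a and Rab4b by 0.26 and 0.27, and Rab21, known for integrin traffic, by 0.27. Whether Rab5a changed differently from Rab5b and Rab5c was not tested.

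Late endosome, lysosome and autophagy genes were measured by 12 probes, of which 6 fell (against 13.8% of all probes). The 6 include dimmer probes of Rab7, Rab9 and Rab24, and of the dimmer probes of all genes 21.1% fell. Of the Rab7 probes that fell, 1 was detected on 1 of 4 anti-miR-214 arrays, and the other was not well above background on any. By the brightest probe 2 of 5 genes fell and the median was -0.07. Rab7b, which returns cargo from endosomes to the Golgi, measured 7.49, 7.74, 7.33 and 7.21 in anti-miR-214 kidneys, against 8.31, 8.15, 8.17 and 7.77 in control antimiR kidneys. Its highest treated animal lay just under its lowest control, and the change was -0.66 ± 0.16 (adjusted p = 0.0133), while its other probe changed by -0.40 and did not pass. Rab12, which sends transferrin receptor to lysosomes, measured 8.26, 8.35, 8.37 and 8.12 in anti-miR-214 kidneys, against 8.97, 8.88, 8.94 and 8.88 in control antimiR kidneys. The spread was small in both groups, and the change was -0.64 ± 0.11 (adjusted p = 0.00299). Rab7, Rab9 and Rab24 did not pass on their brightest probes and fell on dimmer ones, as described with the probe comparisons.

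Genes of recycling and polarised delivery moved both ways: of 11 measured genes 2 rose, 1 fell, and the median was -0.18. Rab11a, the main Rab of the recycling endosome, measured 7.07, 6.87, 6.46 and 6.79 in anti-miR-214 kidneys, against 7.59, 7.30, 7.49 and 7.34 in control antimiR kidneys, a change of -0.63 ± 0.14 (adjusted p = 0.0112). Its isoform Rab11b measured 12.92, 12.82, 12.91 and 12.76 in anti-miR-214 kidneys, against 13.19, 13.14, 13.07 and 12.93 in control antimiR kidneys. These groups touched without overlapping, and the change of -0.23 ± 0.11 did not pass.

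Rab25, an epithelial relative of Rab11, rose. It measured 9.93, 10.09, 10.54 and 10.20 in anti-miR-214 kidneys, against 9.63, 9.81, 9.74 and 9.46 in control antimiR kidneys. All treated animals were above all controls (0.53 ± 0.15, adjusted p = 0.0254), and its other probe changed by 0.40 without passing (adjusted p = 0.0751). The call was lost without anti-miR-214 replicate 3 (0.41, adjusted p = 0.0651) or 4 (0.53, 0.0517) and without control antimiR replicate 1 (0.52, 0.0554) or 4 (0.46, 0.0627).

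Rab8a, which carries cargo to the apical membrane and the cilium, measured 11.59, 11.71, 11.79 and 11.98 in anti-miR-214 kidneys, against 11.39, 11.30, 11.54 and 11.27 in control antimiR kidneys. Its second probe moved alike, at 9.27, 9.44, 9.47 and 9.42 in anti-miR-214 kidneys, against 9.13, 8.96, 9.01 and 8.80 in control antimiR kidneys, and neither probe's groups overlapped. The changes were 0.40 ± 0.12 (adjusted p = 0.0374) and 0.42 ± 0.12 (adjusted p = 0.0219). On the brightest probe the call was lost without anti-miR-214 replicate 2 (0.41, 0.0529), 3 (0.39, 0.0833) or 4 (0.33, 0.0929) and without control antimiR replicate 1 (0.40, 0.0707), 2 (0.37, 0.0960) or 4 (0.36, 0.0771), and on the second without anti-miR-214 replicate 3 (0.40, 0.0596) or control antimiR replicate 2 (0.42, 0.0589).

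The other genes of this group did not pass on their brightest probes. Rab13, a Rab of tight junctions, changed by -0.53, just outside the threshold (adjusted p = 0.0540), and its second probe, detected on 1 of 4 anti-miR-214 arrays, fell by 0.73 (adjusted p = 0.00692). The epithelial Rab17 changed by -0.47, Rab8b by -0.43, Rab15 by -0.18, Rab10, known for glucose transporter delivery, by -0.18, Rab35 by -0.08 and Rab14 by 0.05.

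Among Rabs of secretory granules and lysosome-related organelles, 1 of 6 measured genes passed and the median was 0.14. Rab27a, which docks lytic granules, melanosomes and exosome-bearing endosomes at the plasma membrane, measured 9.27, 9.24, 9.69 and 9.56 in anti-miR-214 kidneys, against 8.94, 8.84, 8.95 and 8.78 in control antimiR kidneys. Each treated animal exceeded each control, and the change of 0.56 ± 0.13 (adjusted p = 0.0120) kept its call when any 1 array was left out. The cytotoxic granule gene Prf1 rose in the same kidneys (11.54 ± 0.26 in anti-miR-214 and 10.63 ± 0.14 in control antimiR kidneys, SD, n = 4 each, adjusted p = 0.0023), and its relation to Rab27a was not tested. Rab3a, a Rab of regulated exocytosis, changed by 0.31 on its brightest probe and rose by 0.49 on its second (adjusted p = 0.0356). Rab3d changed by -0.20, Rab29 by -0.05, and the melanosome Rabs Rab32 and Rab38 by -0.03 and 0.33, none past the threshold.

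Of 4 genes linked to the cilium or other steps, 1 passed. Rab23, which restrains Hedgehog signalling, measured 5.91, 5.37, 5.45 and 5.89 in anti-miR-214 kidneys, against 6.23, 6.11, 6.10 and 5.95 in control antimiR kidneys. This dim probe was detected on 1 of 4 anti-miR-214 arrays and stood just inside the threshold (-0.44 ± 0.15, adjusted p = 0.0498). The call was lost without anti-miR-214 replicate 2 (-0.35, 0.111) or 3 (-0.38, 0.128) and without control antimiR replicate 1 (-0.40, 0.111), 2 (-0.44, 0.104), 3 (-0.44, 0.0930) or 4 (-0.49, 0.0578). Rab40c, part of a ubiquitin ligase, changed by 0.27, Rab28 by 0.05 and Rab42 by 0.12, and the second probe of Rab42 rose by 0.49 (adjusted p = 0.0114).

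The 3 rises depended on the scaling of the arrays. Scaling each array to its median over all probes, most of which are undetected, moved the median change of all probes to -0.15, against 0.05 with quantile normalization, and gave 23 Rab probes past the threshold, all lower, with Rab27a, Rab25 and Rab8a at 0.37, 0.39 and 0.32 and adjusted p of 0.0537, 0.0691 and 0.121. Of all 18601 probes, 551 rose and 4509 fell with that scaling. Scaling to the median over probes detected on all arrays gave 8 rises and 18 falls among Rab probes, with a median of 0.08 over all probes. Of all probes, 2639 rose and 2567 fell in this case. The median over the 47 Rab genes was -0.20 with the first of these scalings and 0.03 with the second. On slide 1 alone, with 3 animals per group, Rab27a, Rab25 and Rab8a changed by 0.49, 0.46 and 0.29 and did not pass (adjusted p = 0.0633, 0.104 and 0.148).

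**Figure D2:**
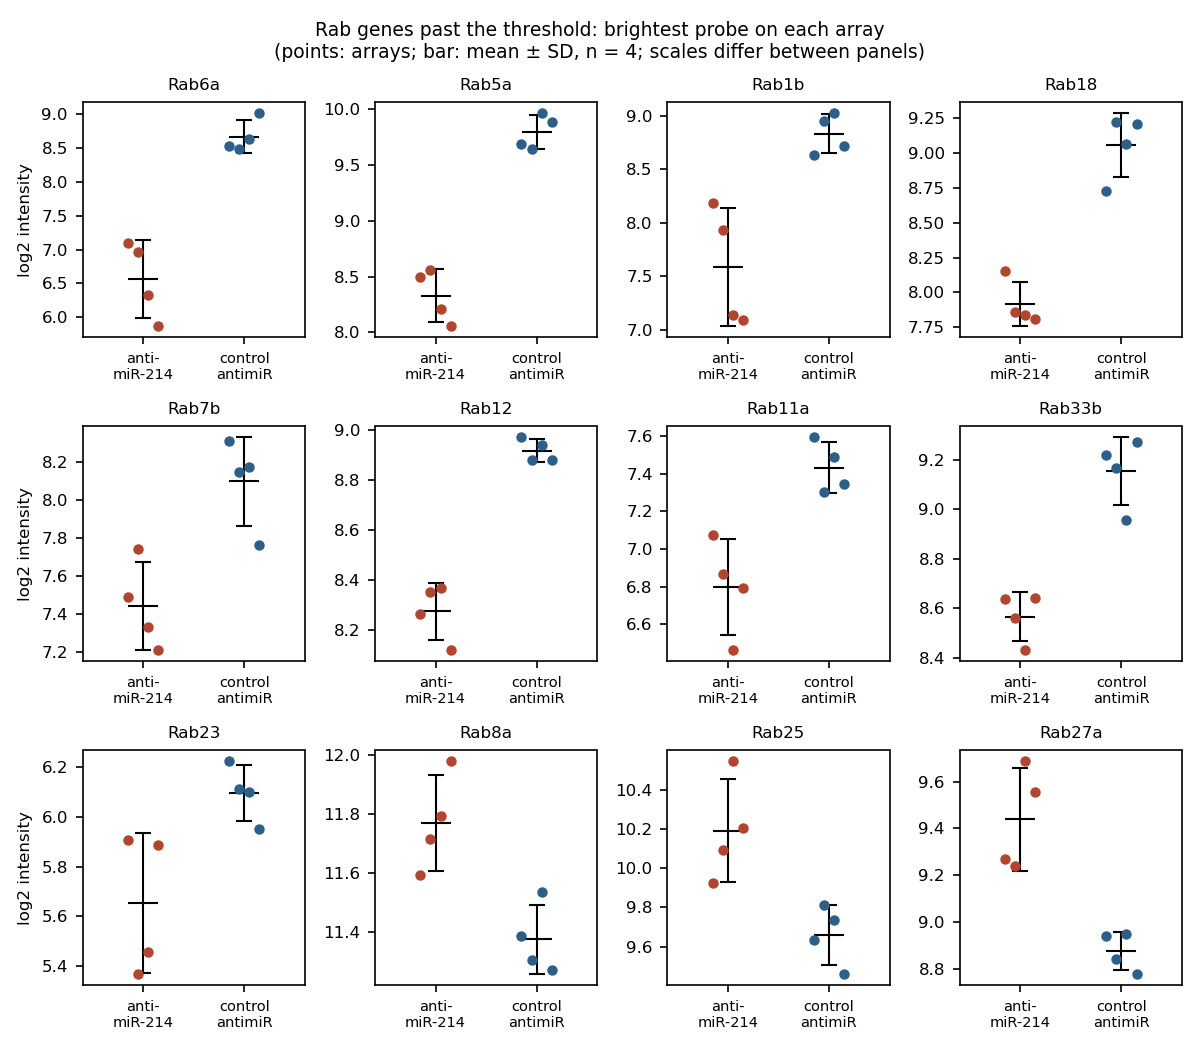
Normalized log2 intensity of the brightest probe on each array (y axis, a scale of its own in each panel) for the 12 Rab genes past the threshold, with anti-miR-214 arrays left of control antimiR arrays and bars for the mean ± SD (n = 4). The groups do not overlap in any panel; the gap is widest for Rab6a and Rab5a and narrowest for Rab7b and Rab23.

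Probes of the same Rab gene often differed in their change. Of the 47 genes, 20 had several measured probes, giving 27 pairs of a dimmer probe with the brightest. The difference between the probes of a pair was computed on each array and tested with limma over all 5307 such pairs of 3769 genes. The change differed within 10 of the 27 Rab pairs (37.0%, against 28.1% of all pairs). In 1 of the 10, the third probe of Rab7, the dimmer probe was not well above background on any anti-miR-214 array. Of the 27 Rab pairs, 7 differed with the dimmer probe more negative and 3 with it more positive. Over all 5307 pairs 1492 differed, 1027 (19.4%) with the dimmer probe more negative and 465 (8.76%) with it more positive. At least 1 pair differed in 8 of the 20 genes (40.0%, against 33.4%), namely Rab5a, Rab6a, Rab7, Rab9, Rab24, Rab28, Rab34 and Rab38. As a group the 27 dimmer probes had a median change of -0.15 and their 20 brightest partners 0.04, while the 27 genes with a single measured probe had -0.08, with 6 falls and 1 rise. Taken pair by pair, the dimmer minus the brightest had a median of 0.03 over the 27 Rab pairs and -0.06 over all pairs.

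Rab5a was the 1 Rab gene with probes past the threshold in opposite directions, as were 3.29% of all genes with several probes. The second probe (ILMN_1253400), annotated to a cDNA clone, measured 8.23, 8.02, 8.06 and 8.43 in anti-miR-214 kidneys, against 7.81, 7.72, 7.90 and 7.52 in control antimiR kidneys. It rose without overlap, by 0.45 ± 0.13 (adjusted p = 0.0323). The third probe (ILMN_2786763), annotated to the RefSeq transcript like the brightest (ILMN_2786764), measured 7.20, 7.22, 6.57 and 7.07 in anti-miR-214 kidneys, against 8.33, 8.37, 8.28 and 8.57 in control antimiR kidneys. It fell by 1.37 ± 0.16 (adjusted p = 0.000583). The brightest and the third probe thus moved alike, and the second differed from the brightest by 1.91 ± 0.19 (adjusted p = 0.000262). The rise of the second probe was lost without anti-miR-214 replicate 1 (0.43, 0.0592) or 4 (0.37, 0.0806) and without control antimiR replicate 1 (0.47, 0.0538), 2 (0.44, 0.0761) or 4 (0.38, 0.0734).

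Rab6a had 4 measured probes that fell into 2 kinds. The second (ILMN_2719507), annotated to a cDNA clone, measured 6.57, 6.27, 6.19 and 5.58 in anti-miR-214 kidneys, against 7.58, 7.64, 8.02 and 8.22 in control antimiR kidneys, and fell by 1.71 ± 0.22 (adjusted p = 0.000805), like the brightest (ILMN_1242802). The third (ILMN_2699635) measured 6.86, 6.87, 7.13 and 7.18 in anti-miR-214 kidneys, against 6.62, 6.83, 6.82 and 6.76 in control antimiR kidneys. Its change of 0.25 ± 0.12 did not pass although the groups did not overlap. The fourth (ILMN_2825339) measured 6.20, 5.84, 6.34 and 5.67 in anti-miR-214 kidneys, against 5.90, 5.89, 6.30 and 5.74 in control antimiR kidneys, and overlapped (0.05 ± 0.17). The changes of the third and the fourth differed from the brightest probe's by 2.35 ± 0.31 and 2.15 ± 0.27 (adjusted p = 0.000697 and 0.000556).

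Rab7, the Rab of late endosomes and lysosome fusion, showed the reverse order. Its brightest probe (ILMN_1248907) measured 11.74, 11.83, 11.66 and 11.71 in anti-miR-214 kidneys, against 11.74, 11.92, 11.73 and 11.81 in control antimiR kidneys, with no difference beyond the spread (-0.07 ± 0.11, adjusted p = 0.675). The second probe (ILMN_2618549) measured 6.57, 5.82, 4.81 and 4.97 in anti-miR-214 kidneys, against 7.84, 8.02, 8.13 and 7.88 in control antimiR kidneys. It was the deepest fall of any Rab probe (-2.42 ± 0.32, adjusted p = 0.00106), though detected on 1 of 4 anti-miR-214 arrays. The third (ILMN_1254837), not well above background on any of the treated arrays, measured 5.18, 5.30, 4.92 and 4.94 in anti-miR-214 kidneys, against 6.33, 6.27, 6.61 and 6.73 in control antimiR kidneys. It was at least 1.51-fold lower, the control mean set against the higher of the probe's own signal and the lowest detected signal on each anti-miR-214 array (means 5.08 in anti-miR-214 and 6.48 in control antimiR kidneys, adjusted p = 0.000488). All 3 probes are annotated to the RefSeq transcript, and the second differed from the brightest by -2.36 ± 0.31 (adjusted p = 0.000719).

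**Figure D3:**
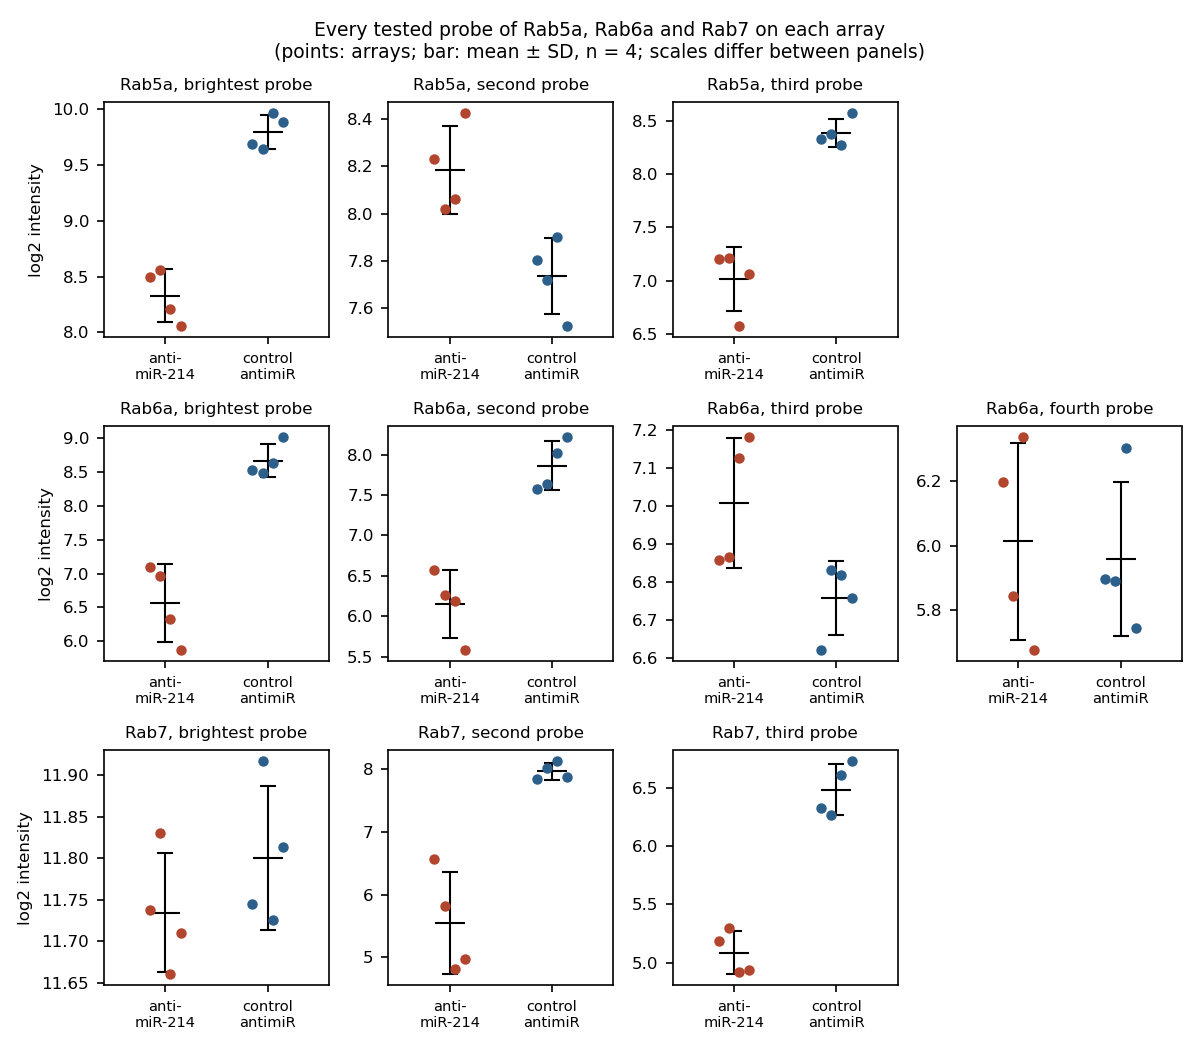
Normalized log2 intensity on each array (y axis, a scale of its own in each panel) for every measured probe of Rab5a, Rab6a and Rab7, with anti-miR-214 left of control antimiR and bars for the mean ± SD (n = 4). Within Rab5a the second probe moves up while the others fall, within Rab6a 2 of 4 probes fall, and within Rab7 the brightest probe stays between 11.66 and 11.92 while both dimmer ones fall.

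Rab9, which retrieves mannose 6-phosphate receptors to the Golgi, measured 8.06, 8.04, 8.44 and 8.40 in anti-miR-214 kidneys, against 8.15, 8.04, 8.43 and 7.95 in control antimiR kidneys, on its brightest probe (0.09 ± 0.15). Its second probe measured 6.34, 5.92, 6.21 and 5.71 in anti-miR-214 kidneys, against 6.83, 6.71, 6.96 and 6.93 in control antimiR kidneys, and fell by 0.81 ± 0.15 (adjusted p = 0.00451), so that the pair differed by -0.91 ± 0.19 (adjusted p = 0.00653). The third probe, detected on 1 anti-miR-214 and 3 control antimiR arrays, changed by 0.02.

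Rab24, which acts late in autophagy, measured 10.34, 10.38, 10.50 and 10.40 in anti-miR-214 kidneys, against 10.28, 10.10, 10.39 and 10.57 in control antimiR kidneys, on its brightest probe (0.07 ± 0.12), and its second probe changed by 0.16. The third probe parted from these, at 8.63, 8.54, 8.34 and 8.01 in anti-miR-214 kidneys, against 9.10, 8.90, 9.12 and 9.34 in control antimiR kidneys, a fall of 0.74 ± 0.16 (adjusted p = 0.00838, pair difference -0.81 ± 0.16, adjusted p = 0.00387). Rab28, known for its role in photoreceptor cilia, measured 11.09, 11.22, 11.19 and 11.13 in anti-miR-214 kidneys, against 11.18, 11.04, 10.996 and 11.21 in control antimiR kidneys, on its brightest probe. Its second probe fell, at 9.49, 9.22, 9.07 and 8.92 in anti-miR-214 kidneys, against 9.92, 9.83, 9.77 and 10.50 in control antimiR kidneys (-0.83 ± 0.18, adjusted p = 0.00959, pair difference -0.88 ± 0.17, adjusted p = 0.00427).

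Rab34 and Rab38 had pairs that differed although no single probe passed. Rab34, a Golgi and cilium Rab, measured 10.03, 9.90, 9.86 and 10.02 in anti-miR-214 kidneys, against 9.70, 9.86, 9.86 and 9.54 in control antimiR kidneys, on its brightest probe (0.21 ± 0.12). Its second measured 10.11, 9.58, 9.22 and 9.38 in anti-miR-214 kidneys, against 9.78, 9.99, 9.97 and 10.21 in control antimiR kidneys (-0.42 ± 0.19), and the third changed by 0.28. The second differed from the brightest by -0.63 ± 0.20 (adjusted p = 0.0347). Rab38 measured 8.28, 8.13, 8.38 and 7.97 in anti-miR-214 kidneys, against 7.44, 8.13, 7.82 and 8.04 in control antimiR kidneys, on its brightest probe. The second, detected on 1 anti-miR-214 array, measured 6.60, 5.47, 5.37 and 5.39 in anti-miR-214 kidneys, against 5.96, 6.58, 6.10 and 6.20 in control antimiR kidneys, and the pair differed by -0.83 ± 0.24 (adjusted p = 0.0272).

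Taking a gene by its brightest probe therefore left out 7 genes with a call on a dimmer probe: Rab7, Rab9, Rab13, Rab24 and Rab28, whose dimmer probes fell, and Rab3a and Rab42, whose dimmer probes rose. With the mean of all measured probes per gene, 16 Rab genes passed, 13 lower and 3 higher. The share of all named genes that passed by this mean is not given here. Among the 13 was Rab39b (limma adjusted p = 0.0486), whose only measured probe was not well above background on any anti-miR-214 array. Of the 74 Rab probes, 58 were detected on all 8 arrays, 11 on all control antimiR arrays but fewer anti-miR-214 arrays, and 1, the second probe of Rab3a, the other way round. The part of detection in the probe disagreements was not tested.

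**Figure D4:**
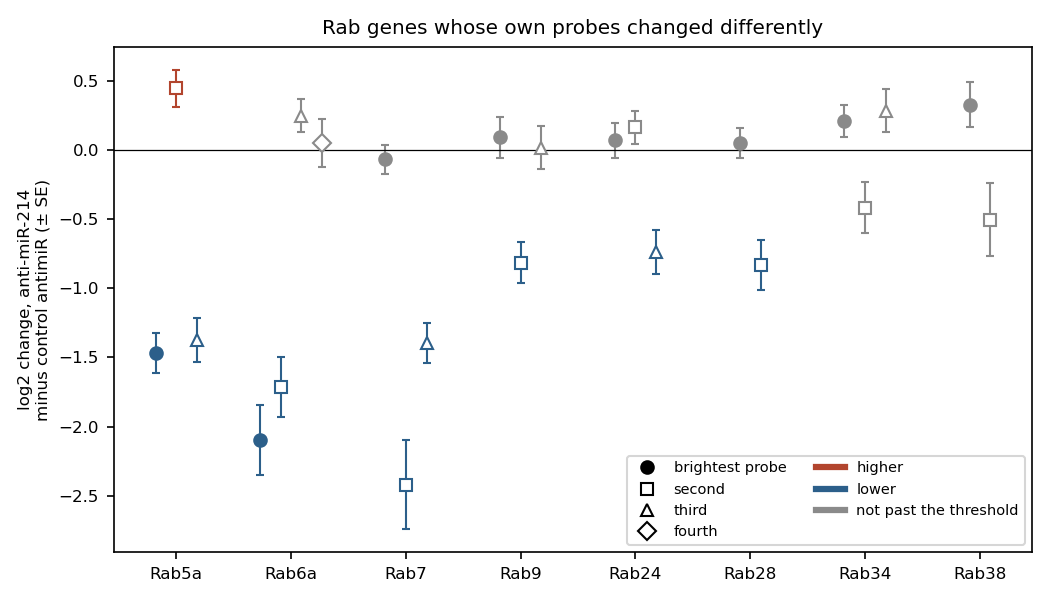
Log2 change (y axis, anti-miR-214 minus control antimiR, bars ± SE) of every measured probe of the 8 Rab genes with a probe pair that differed, with filled circles for the brightest probe and open symbols for dimmer ones. For Rab5a and Rab6a the brightest probe fell, whereas for Rab7, Rab9, Rab24 and Rab28 the brightest lies near 0 and a dimmer one fell.

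The genes that act on or beside the Rab proteins moved in both directions. Over 10 lists of such genes, 311 were measured by their brightest probe, and 43 rose and 34 fell, 77 in all (24.8%, against 22.3% of named genes). In percent past the threshold the lists ran from 18.2% (retromer and sorting nexins) to 36.4% (Arf and Arl genes), with 19.0% for exchange factors, 19.1% for coats, 23.1% for tethers, 24.4% for effectors, 26.7% for SNARE proteins, 33.3% each for GTPase-activating proteins and prenylation genes and 34.6% for Ras, Rap and Ral genes. Of 6 genes for Rab prenylation and GDP dissociation 1 rose and 1 fell (median -0.14). Gdi2, which extracts GDP-bound Rab proteins from membranes, averaged 5.84 ± 0.40 in anti-miR-214 and 7.15 ± 0.30 in control antimiR kidneys (SD, n = 4 each), a change of -1.31 (adjusted p = 0.0022). Rabggta, a subunit of the enzyme that attaches the Rab lipid anchor, rose by 0.54 (adjusted p = 0.0155), and Rabif changed by -0.25 without passing.

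Among 42 guanine nucleotide exchange factors 6 rose and 2 fell (median 0.10). The TRAPP subunit Trappc6b fell by 0.86 on its brightest probe and by 0.80 on its other, while Dennd6b rose by 0.67. Trappc8 fell by 0.46 on its brightest probe, and its 3 other probes changed by 0.29, 0.05 and -0.61, the last past the threshold. Among 30 GTPase-activating proteins 7 rose and 3 fell (median 0.13). Sgsm2 rose by 0.75, and Tbc1d9 and Tbc1d23 fell by 0.66 and 0.56. Among 45 effectors 4 rose and 7 fell (median 0.08). Micall2 rose by 0.73 and the Golgi tether Golgb1 by 0.58, while the Golgi coiled-coil protein gene Golga4 fell by 0.68. The other probe of Micall2 changed by 0.43 without passing.

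The machinery of fusion and coats was likewise mixed. Of 45 SNARE proteins and their partners 5 rose and 7 fell (median -0.0043). Bet1, a SNARE of the ER to Golgi step served by Rab1b, fell by 0.82, Stxbp3 rose by 0.996 on its brightest probe and changed by 0.0077 on its other, and Snap23 fell by 0.67 and changed by 0.13 on its other. Of 26 tethering complex genes 4 rose and 2 fell (median 0.16), with the exocyst genes Exoc4 and Exoc2 at -0.77 and -0.44 and the Golgi gene Cog2 at 0.65. The other probe of Exoc4 changed by -0.21 without passing. Of 47 coat and adaptor genes 6 rose and 3 fell (median 0.02). The COPII coat genes Sec23a and Sec24b fell by 1.04 and 0.52, and Epn3 rose by 0.58. Of 33 retromer and sorting nexin genes 4 rose and 2 fell (median -0.04). Snx30 and Snx32 rose by 0.85 and 0.63, and the retromer core gene Vps35 fell by 0.59 and, on its other probe, by 0.94.

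Other small GTPases were counted in the same way. Of 11 Arf and Arl genes 1 rose and 3 fell (median -0.22), with Trim23 at -1.21, Arf5 at -0.68 and Arl2 at 0.38. Of 26 Ras, Rap and Ral genes 5 rose and 4 fell (median -0.06), with Rheb, an activator of mTORC1, at -0.84, Rasl12 at 0.53 and Rap2a at -0.57. The other probe of Rap2a changed by 0.18 without passing. Differences between the lists, and between any list and the Rab genes, were not tested. The count of listed genes past the threshold dropped to 40 without anti-miR-214 replicate 3, to 47 without anti-miR-214 replicate 4 and to 40 without control antimiR replicate 2. With arrays scaled to the median over all probes it was 6 higher and 79 lower, and of all 18601 probes 551 rose and 4509 fell.

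**Figure D5:**
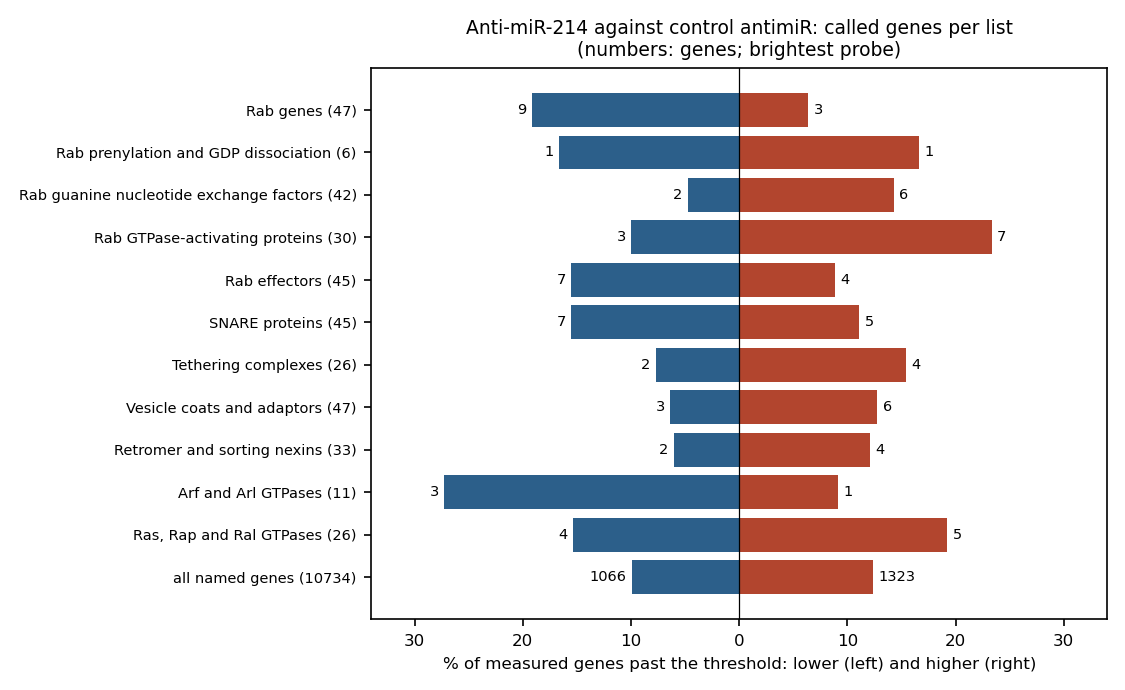
Share of measured genes past the threshold (x axis, percent, lower in anti-miR-214 to the left and higher to the right) for the Rab genes, 10 lists of neighbouring genes and all named genes, with gene counts at the bars. Rab genes show 9 lower and 3 higher of 47, and all named genes 1066 lower and 1323 higher of 10734.

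Promoters are shown for the 3 genes with the largest falls and the 2 with the largest rises among those with a single start in the RefSeq table, because these genes moved in opposite directions. Each runs 5' to 3' from 250 bases before to 50 after the start, build GRCm38.p6, with capitals for matches on either strand to 5 motifs: the GC box GGGCGG, the CCAAT box CCAAT, the E-box CACGTG, the cAMP response element TGACGTCA and the ETS motif CCGGAAGT. They lie at chr7:100607336-100607635, plus strand (Rab6a), chr17:53478984-53479283, plus strand (Rab5a), chr19:5106947-5107246, minus strand (Rab1b), chr3:88548230-88548529, minus strand (Rab25) and chr8:72160950-72161249, plus strand (Rab8a).
Rab6a: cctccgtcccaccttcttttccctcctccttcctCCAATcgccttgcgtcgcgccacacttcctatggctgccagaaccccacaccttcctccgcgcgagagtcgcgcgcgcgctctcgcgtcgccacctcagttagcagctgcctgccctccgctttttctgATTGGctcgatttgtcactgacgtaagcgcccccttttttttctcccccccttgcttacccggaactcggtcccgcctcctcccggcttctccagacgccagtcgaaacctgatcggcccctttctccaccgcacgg
Rab5a: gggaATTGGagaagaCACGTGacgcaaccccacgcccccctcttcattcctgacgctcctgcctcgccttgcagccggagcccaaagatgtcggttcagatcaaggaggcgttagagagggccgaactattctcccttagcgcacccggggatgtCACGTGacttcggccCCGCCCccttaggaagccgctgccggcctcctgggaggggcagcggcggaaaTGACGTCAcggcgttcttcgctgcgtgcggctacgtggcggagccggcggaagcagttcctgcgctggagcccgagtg
Rab1b: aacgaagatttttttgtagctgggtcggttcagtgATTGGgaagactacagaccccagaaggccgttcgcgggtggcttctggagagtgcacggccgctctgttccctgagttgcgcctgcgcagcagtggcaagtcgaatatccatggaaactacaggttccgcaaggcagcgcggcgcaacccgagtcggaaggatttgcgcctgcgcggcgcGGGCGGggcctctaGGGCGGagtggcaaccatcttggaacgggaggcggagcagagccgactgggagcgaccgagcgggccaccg
Rab25: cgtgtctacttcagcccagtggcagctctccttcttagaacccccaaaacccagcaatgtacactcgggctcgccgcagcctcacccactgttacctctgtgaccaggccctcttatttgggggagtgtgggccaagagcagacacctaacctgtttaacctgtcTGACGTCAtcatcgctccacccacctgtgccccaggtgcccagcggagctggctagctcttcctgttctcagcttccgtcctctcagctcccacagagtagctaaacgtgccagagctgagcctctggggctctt
Rab8a: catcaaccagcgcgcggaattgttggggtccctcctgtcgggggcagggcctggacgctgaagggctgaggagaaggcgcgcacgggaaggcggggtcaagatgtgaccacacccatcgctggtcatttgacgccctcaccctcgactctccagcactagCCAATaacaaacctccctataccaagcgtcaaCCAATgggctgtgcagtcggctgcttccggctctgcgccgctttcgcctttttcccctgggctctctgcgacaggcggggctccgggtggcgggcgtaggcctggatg
Rab6a and Rab8a each held 2 CCAAT boxes and no other of these motifs, though one fell and the other rose. Rab5a held 2 E-boxes, 1 GC box, 1 CCAAT box and 1 cAMP response element, Rab1b 2 GC boxes and 1 CCAAT box, and Rab25 1 cAMP response element. Of the 47 measured genes 41 matched a promoter in the table. A Rab gene counted if any of its promoters held the motif, while the share of all is over single promoters. A gene with several starts thus had more chances to count. A GC box lay in 30 of these 41 (73.2%), against 35.7% of all 32851 promoters, and a CCAAT box in 22 (53.7%), against 37.4%. The E-box was in 5 (12.2%, against 7.15%), and the cAMP response element and the ETS motif in 2 each (4.88%, against 1.79% and 3.89%). Median GC content was 62.8% over these Rab genes, each taken as the mean of its promoters, and 52.7% over all single promoters. These letter matches describe the windows and were tied to no change in level.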

How the data were processed

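RNA of 8 whole kidneys, 4 anti-miR-214 and 4 control antimiR, was hybridised to Illumina mouse bead arrays, and groups were taken from the sample titles. The deposited table held a mean bead intensity per probe and array on a linear scale, called non-normalized per the file headers. Beside each intensity the deposited table gave a detection p-value, per the file headers. Another deposited table gave processed intensity values, some below 0, whose making no source used here describes, and it served as an alternative. The members and gene lists were chosen with earlier results of these data known.

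Intensities were corrected and normalized with neqc of limma 3.58.1 in R 4.3.3 (negative controls inferred from detection p, offset 16, quantile normalization, log2). Quantile normalization forces equal distributions on all arrays, and the offset presses the changes of dim probes toward 0. Probes with a detection p under 0.05 on at least 4 of 8 arrays were tested with lmFit and eBayes, with group as the only term and Benjamini-Hochberg adjustment over all tested probes. Symbols came from the platform annotation. Of the probes, 10378 were unnamed and 18 had several symbols and were left unnamed. Arrays have no read depth, and the number of animals limits the precision. The fits were tested on simulated data. Values on every array are given for genes past the threshold, genes with a probe pair that differed and the 4 brightest Rab genes, and list genes named are the 3 of smallest adjusted p. Alternatives changed the scaling, background, offset, table, detection filter, variance model, blocks and covariate, and left out arrays. The deviations of same-numbered animals from their group means correlated at 0.015 to 0.204, so the numbers were not taken as pairs.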

Additional observations from a re-analysis of the deposited data

Results flagged for a closer look

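In 3 results, 1 array lay far from the other 3 of its group by Dixon's gap test, out of 104 groups tested, where chance gives about 1 in 20. The brightest probe of Rab15, a Rab of endosome recycling, measured 8.85 on its lowest anti-miR-214 array, against 9.28, 9.34 and 9.35 on the others. Rab18 measured 8.15 on its highest anti-miR-214 array, against 7.81, 7.84 and 7.86 on the others, and all 4 lay under the lowest control antimiR array. The upper quartile of raw intensity was 276 on the lowest control antimiR array, against 313, 318 and 320 on the others.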

How the results depend on the processing

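Leaving out 1 array gave 19 to 28 Rab probes (24 with all arrays), 9 to 14 genes (12), 8 to 10 probe pairs (10), 40 to 76 listed genes (77) and 2963 to 4823 of all probes (4761), and detected probes differed by -1922 to -1624.33 (-1799.75). The probe gap as a covariate left no Rab probe, gene, pair or listed gene past limma's threshold (0 each, with 11, 6, 4 and 22 at an unadjusted p under 0.05). Of all probes it left 3 past the threshold, with 1690 at an unadjusted p under 0.05. Without anti-miR-214 replicates 3 and 4 together, 11 Rab probes, 6 genes (all among the 12, without Rab7b, Rab11a, Rab23, Rab27a, Rab25 and Rab8a), 14 listed genes and 1399 probes passed. Slide 1 alone gave 32 listed genes and 2549 probes. No detection filter gave 17 differing pairs and detection on all 8 arrays 4, as more or fewer probes entered. The replicate number as a block gave 23 Rab probes, 12 genes, 9 pairs and 4598 probes, with Rab8a, Rab23 and the second Rab5a probe at adjusted p of 0.0612, 0.0584 and 0.0596. Rab23 passed in 4 of 21 alternatives, Rab8a in 11 of 22 and Rab25 in 14 of 22. Among the genes whose values are given on every array, signs turned for brightest probes not past the threshold. With the median over probes detected on all arrays, Rab11b was 0.039, Rab2a 0.06, Rab5c 0.16 and Rab7 0.11. With the median over all probes, an alternative chosen after seeing the data, Rab24 was -0.039, Rab28 -0.044 and Rab9 -0.17, and with the probe gap Rab28 was -0.037 and Rab9 -0.18. On slide 1 the brightest probes of Rab14 and Rab29, at 0.05 and -0.05 on all arrays, were -0.05 and 0.03. Rab9 was -0.025 on slide 1 and -0.093 without anti-miR-214 replicates 3 and 4. Leaving out 1 array, Rab5c ranged from -0.083 to 0.040, above 0 without anti-miR-214 replicate 1 or control antimiR replicate 4, and Rab24 from -0.0069 to 0.15, below 0 without control antimiR replicate 2. The causes were not tested.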

Other observations

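Genes that bear a Rab symbol without being Rab GTPases also moved, and they were chosen here after their values were seen. Rab26os, an antisense transcript named for Rab26, averaged 9.71 ± 0.23 in anti-miR-214 and 9.30 ± 0.064 in control antimiR kidneys (log2 intensity, SD, n = 4 each) and rose by 0.41 (limma adjusted p = 0.0416), while Rab26 had no measured probe. Rab5if, named for an interaction with Rab5, averaged 10.21 ± 0.55 in anti-miR-214 and 10.68 ± 0.19 in control antimiR kidneys on its brightest probe, which did not pass. Its second averaged 8.12 ± 0.58 in anti-miR-214 and 9.06 ± 0.28 in control antimiR kidneys and fell by 0.95 (adjusted p = 0.0220). The Rab11 effector Rab11fip4 rose by 0.83 (adjusted p = 0.0244), while Rab11a fell. The changes of Rab probes were more spread than those of all probes, with an SD of 0.61 over 74 Rab probes and 0.46 over all 18601.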
